A study of Saccharomyces cerevisiae S288C with 71 samples.

Results

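The genes described here are 9 genes of inositol and phospholipid synthesis in budding yeast, INO1, ITR1, CHO1, PSD1, CHO2, OPI3, INO2, INO4 and OPI1, taken by symbol from an expression table of 5803 genes. All 9 were present, all 9 passed the filter on low values, and none was chosen by its level. The set was named with earlier results of these data known. RNA was sequenced from Saccharomyces cerevisiae S288C in 12 strains at 0, 12 and 16 h, a span in which wild-type cells go through the diauxic shift from fermenting glucose to respiring the products. The strains were 6 double deletions (coq2 ras2, coq2 rts1, coq2 tco89, cox4 ras2, cox4 rts1 and cox4 tco89), 2 deletions that block the electron transport chain (coq2, which cannot make coenzyme Q, and cox4, which lacks part of cytochrome c oxidase), 3 deletions that the labels call suppressors of starvation lethality in such mutants, and the wild type (wt). Among the suppressor genes, RAS2 encodes a small GTPase upstream of cyclic AMP, RTS1 encodes a B-type subunit of the PP2A phosphatase, and TCO89 encodes a component of TORC1, a nutrient-sensing kinase complex. All cultures grew in shaken flasks at 30 C in yeast nitrogen base with ammonium and 2% glucose, and the 0 h sample was taken in log phase. Whether the medium held inositol or choline, which repress several of these genes, is not given in the labels.

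Yeast makes inositol from glucose 6-phosphate and makes most of its membrane phospholipids from CDP-diacylglycerol. Many genes of these routes share a promoter element, UASINO, whose core is bound by a heterodimer of the basic helix-loop-helix proteins Ino2 and Ino4. When phosphatidic acid is plentiful at the endoplasmic reticulum the repressor Opi1 is held there, and when it is used up, as after inositol is supplied, Opi1 enters the nucleus and represses Ino2-Ino4 target genes.

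The upstream DNA is shown because shared control through this element is what the 9 genes are known for. The core CATGTG, searched on both strands of the 500 bases before each start codon in the R64 genome, was found in 8 of the 9 genes and in 13.2% of 6000 such regions genome-wide. Of the 9 genes, 6 held the core at least 2 times against 1.37% of all regions. The longer form CATGTGA was found in 7 of the 9 genes against 3.78% of all regions. OPI1 held no core in this window. The stretches printed below are a selection of the matches, and none is printed for INO4. In CHO2 and INO2 the letters CACATGTG give a match on each strand at nearly the same place, so those matches overlap. Each stretch below runs 5′ to 3′ on the strand of the gene, with the core in capitals, written CACATG where the match lies on the opposite strand.
INO1: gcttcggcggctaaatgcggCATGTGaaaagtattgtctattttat
INO1: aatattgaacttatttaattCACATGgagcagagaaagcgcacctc
ITR1: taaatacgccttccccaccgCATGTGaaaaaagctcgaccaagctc
CHO1: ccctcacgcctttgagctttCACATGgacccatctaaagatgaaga
CHO2: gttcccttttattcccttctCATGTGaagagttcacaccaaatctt
OPI3: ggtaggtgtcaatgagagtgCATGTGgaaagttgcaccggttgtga
PSD1: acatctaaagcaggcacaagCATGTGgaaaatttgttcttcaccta
INO2: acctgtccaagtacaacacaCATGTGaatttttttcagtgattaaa
The INO1 stretches lie at chrX:136151-136196 and chrX:136086-136131 on the minus strand, with the core 243 and 178 bases before the start codon. The ITR1 stretch lies at chrIV:1445663-1445708 on the minus strand, 221 bases before the start codon. The CHO1 stretch is chrV:208608-208653 on the minus strand, and the CHO2 stretch is chrVII:802153-802198 on the plus strand. OPI3, at chrX:573122-573167, PSD1, at chrXIV:317810-317855, and INO2, at chrIV:699587-699632, are all read from the minus strand. A match of letters is a description of the DNA and not evidence that a factor binds there.

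The table held 71 libraries in 36 groups of strain and time, with 2 libraries in 35 groups and 1 in cox4 rts1 at 16 h. Libraries that share a strain and a time are named technical replicates in the labels, so each p-value below measures the spread between such libraries, and strain and culture cannot be told apart. Levels are given in TPM, each gene's share of a library's transcripts after correction for gene length, and the read depth is unknown. These are bulk cultures, in which fewer cells using a gene and less RNA per cell cannot be told apart. Between 5622 and 5699 genes reached 1 TPM in a library, and the correlation across genes between libraries that share a strain and a time was 0.986 to 0.998. For the 9 genes, the ratio of the higher to the lower library of a group had a median of 1.05 to 1.14 over 35 groups, and the largest ratio, 1.8, was that of OPI1 in rts1 at 12 h. At 0 h the library in the first column of a pair was the higher in 12 of 12 strains for CHO1 and CHO2 and in 0 of 12 for OPI1, and at 12 h in 0 of 12 for OPI3. What the column position marks is not given in the labels. With column position as a term 1 of 909 values for the 9 genes changed its call. Each deleted gene was lower in the libraries that lack it than in any other library, with COX4 at 72.3 TPM in 1 cox4 tco89 library at 16 h as the highest residue. The alpha-cell gene STE3 had a median of 183 TPM at 0 h and the a-cell gene STE2 a median of 6.79 TPM. A gene is said to have risen or fallen where limma, fitted on log2(TPM + 1) over all genes, gave an adjusted p under 0.05 and a change of at least 2-fold.

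INO1 (YJL153C, chromosome X, 134332 to 135933) encodes inositol-3-phosphate synthase, the rate-limiting enzyme of inositol synthesis, and it moved over the widest range of the 9 genes. At 0 h its mean level ran over 51.3-fold, with 541 TPM in cox4 ras2 at the top and 10.5 TPM in cox4 at the bottom. The other 8 genes spanned 1.68-fold (INO4) to 3.83-fold (OPI3) over the same 12 strains. At 12 h INO1 spanned 11-fold, with tco89 highest at 1619.8 TPM and cox4 ras2 lowest at 147 TPM. At 16 h it spanned 13-fold, with tco89 highest at 706 TPM and ras2 lowest at 54.5 TPM. The order of strains therefore differed at each time. At 0 h the only neighbours in the order whose libraries overlapped were coq2 ras2 and tco89, at 13.7 and 16.5 TPM against 14.1 and 16.2 TPM.

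**Figure D1:**
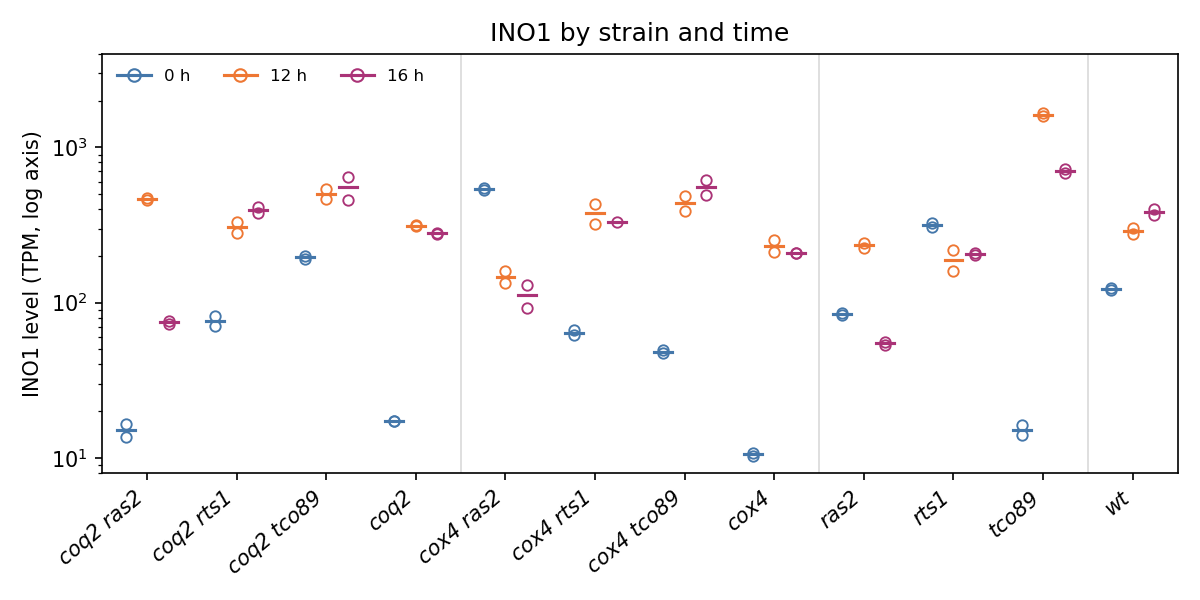
INO1 level in TPM (log axis) in each strain, with 0, 12 and 16 h in different colours, a circle for each library and a bar for the mean of a group. The coq2 ras2, coq2, cox4 and tco89 libraries at 0 h lie between 10.3 and 17.2 TPM, whereas cox4 ras2 at 0 h lies near 541 TPM and tco89 at 12 h near 1619.8 TPM.

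In wild-type cells INO1 rose across the shift while the inositol transporter and 3 enzymes of phosphatidylserine and phosphatidylethanolamine use fell. INO1 had 404 and 365 TPM at 16 h and 303 and 277 TPM at 12 h, against 123 and 120.1 TPM at 0 h. All 4 later libraries lay above the 0 h libraries, and the 16 h level was 3.14-fold that at 0 h (log2 1.65 ± 0.14 SE, adjusted p = 8.38e-14). Among all 5766 genes tested, 17.7% rose by the same criteria at 12 h and again 17.7% at 16 h, so a rise of 1 of 9 genes is near the background.

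The genes that fell at 16 h were ITR1, CHO1, CHO2 and PSD1, which is 4 of 9, against 28.9% of all genes. The same 4 passed at 12 h, when 27.7% of all genes fell. In a set of 9 these counts of falls are not far above the background. ITR1 (YDR497C, chromosome IV, 1443713 to 1445467) encodes the major myo-inositol transporter. It had 215 and 215 TPM at 16 h, against 864 and 816 TPM at 0 h, a log2 change of -1.96 (adjusted p = 1.16e-18). CHO1 (YER026C, chromosome V, 207644 to 208474), the phosphatidylserine synthase, had 166 and 154 TPM at 16 h, against 536 and 473 TPM at 0 h. PSD1 (YNL169C, chromosome XIV, 316169 to 317671), the mitochondrial decarboxylase that turns phosphatidylserine into phosphatidylethanolamine, had 43.7 and 43.3 TPM, against 164 and 159 TPM at 0 h. Its fall by 1.87 on the log2 scale (adjusted p = 7.45e-20) was already present at 12 h, at 38.4 and 36.7 TPM. CHO2 (YGR157W, chromosome VII, 802440 to 805049), the first phosphatidylethanolamine methyltransferase, had 36.7 and 34.4 TPM at 16 h, against 119 and 89.0 TPM at 0 h. Its log2 change at 12 h was -1.16, and it missed 2-fold at -0.89 with median-ratio scaling and at -0.96 without the higher of the 0 h libraries.

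OPI3 (YJR073C, chromosome X, 572315 to 572935), which encodes the methyltransferase that completes phosphatidylcholine synthesis, was the most abundant of the 9 and did not pass. It had 1831 and 1679 TPM at 16 h, against 2481 and 2743 TPM at 0 h. The activator gene INO2 (YDR123C, chromosome IV, 698554 to 699468) had 59.8 and 52.5 TPM at 16 h, against 52.2 and 50.8 TPM at 0 h, and these libraries stood close together. Its partner INO4 (YOL108C, chromosome XV, 111431 to 111886) had 197 and 212 TPM, against 103 and 100.2 TPM, a log2 change of 1.00 that stood just under 2-fold on the values as deposited and past it, at 1.29, with median-ratio scaling. The repressor gene OPI1 (YHL020C, chromosome VIII, 66242 to 67456) had 100.2 and 109 TPM at 16 h and 70.8 and 79.4 TPM at 12 h, against 130.2 and 136 TPM at 0 h, without passing at either time. Over the 9 genes the median log2 change at 16 h was -0.57, against -0.24 over all genes. Between 16 and 12 h in wt none of the 9 passed with limma, although 6 had an unadjusted and 1 an adjusted p under 0.05.

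In log phase the electron transport chain mutants had far less INO1 RNA than wild type, and none of the other 8 genes passed. INO1 had 17.2 and 17.2 TPM in coq2 and 10.8 and 10.3 TPM in cox4, against 123 and 120.1 TPM in wt. No mutant library came near a wild-type library. INO1 fell by 2.76 on the log2 scale in coq2 (6.75-fold, adjusted p = 2.05e-18) and by 3.41 in cox4 (10.6-fold, adjusted p = 1.99e-22). It was the only one of the 9 to pass in either mutant, where 0.156% of all genes fell in coq2 and 0.572% in cox4. In each mutant only 2 of 5766 genes fell further.

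With the 2-fold limit set aside, 4 of the 9 had an adjusted p under 0.05 in coq2 and 8 of the 9 in cox4. The median log2 change over the 9 was -0.45 in coq2 and -0.64 in cox4, against -0.04 and -0.06 over all genes. The nearest to 2-fold in cox4 were ITR1 and OPI3. ITR1 had 434 and 428 TPM in cox4, against 864 and 816 TPM in wt, and OPI3 had 1337 and 1378 TPM in cox4, against 2481 and 2743 TPM in wt. The libraries did not overlap in either case, and both changes were just short of 2-fold, at -0.96 and -0.94 on the log2 scale. In coq2 the same genes stood at 534 and 537 TPM for ITR1 and at 1696 and 1833 TPM for OPI3.

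At 12 h INO1 had 315 and 309 TPM in coq2 and 212 and 253 TPM in cox4, against 303 and 277 TPM in wt. The log-phase gap was no longer present in coq2. In cox4 it had narrowed to a log2 change of -0.32, with both libraries still below those of wt. None of the 9 passed in coq2 or cox4 at 12 h with limma, and 2 and 3 of them had an unadjusted p under 0.05. In each mutant 2 of the 9 had an adjusted p under 0.05 without a 2-fold change. OPI3 was among them, at 0.72 in coq2 and 0.69 in cox4 on the log2 scale. With median-ratio scaling OPI3 alone passed in coq2, at 1.05. Within the mutants, INO1 at 16 h was 15.5-fold its 0 h level in coq2 (adjusted p = 7.72e-27) and 18.2-fold in cox4 (adjusted p = 8.59e-28). At that time 4 of the 9 had risen within coq2, namely INO1, OPI3, INO2 and INO4, against 14.8% of all genes, and 3 had fallen, against 38.8%. The same 4 rose within cox4, against 17.2% of all genes, and 2 fell, against 36.5%. The counts of falls within coq2 and cox4 are no higher than the background.

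By 16 h OPI3 had risen above wild type in both mutants. It had 4329 and 4578 TPM in coq2 and 4085 and 3869.5 TPM in cox4, against 1831 and 1679 TPM in wt. Every mutant library lay above both wild-type libraries, by 1.34 on the log2 scale in coq2 (adjusted p = 5e-15) and by 1.18 in cox4 (adjusted p = 2.8e-13). OPI3 was the only one of the 9 to rise in coq2, against 1.35% of all genes. In cox4 there were 2 of 9, against 1.99%, the other being INO2 with 119 and 128 TPM in cox4, against 59.8 and 52.5 TPM in wt (log2 1.12 ± 0.12 SE, adjusted p = 8.78e-11). INO2 in coq2 stood between them, at 94.1 and 96.7 TPM, a log2 change of 0.76 that passed 2-fold only with median-ratio scaling (1.18) or quantile normalization (1.1). INO1 itself had 283 and 278 TPM in coq2 and 209 and 209 TPM in cox4 at 16 h, against 404 and 365 TPM in wt. Those libraries were all below wild type, without a 2-fold change. Set against each other, coq2 and cox4 differed past the threshold in none of the 9 at 0, 12 or 16 h with limma. Of the genes, 5, 2 and 3 had an unadjusted p under 0.05. At 0 h 2 of them also had an adjusted p under 0.05, without a 2-fold change.

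The 3 suppressor deletions differed in log-phase INO1. The level was 14.1 and 16.2 TPM in tco89, 308 and 326 TPM in rts1 and 83.2 and 85.5 TPM in ras2, against 123 and 120.1 TPM in wt. In tco89 INO1 fell by 2.93 on the log2 scale (adjusted p = 1.74e-20), the only one of the 9 to fall, against 1.08% of all genes. In rts1 INO1 rose by 1.37 (2.59-fold, adjusted p = 3.31e-10), again alone, against 1.4% of all genes. The ras2 level lay below wild type by 0.52 on the log2 scale and did not pass. Without the 2-fold limit, 6 of the 9 had an adjusted p under 0.05 in tco89, 4 in rts1 and 5 in ras2. The median log2 changes over the 9 were -0.45, 0.22 and -0.50, against 0.04, -0.13 and -0.10 over all genes.

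In tco89 the low log-phase INO1 was followed by the highest level of the series. At 12 h INO1 had 1583 and 1657 TPM in tco89, against 303 and 277 TPM in wt, a 5.57-fold rise (log2 2.48 ± 0.14 SE, adjusted p = 1.32e-18). Within tco89 the 12 h level was 100.4-fold that at 0 h. INO1 and OPI3 were the 2 of 9 to rise, against 15.5% of all genes, a count near the background. Relative to wt, 4 of the 9 had risen at 12 h, against 7.08% of all genes, and none had fallen. ITR1 had 514 and 559 TPM in tco89, against 211 and 221 TPM in wt. Its own 0 h level in tco89 was 468 and 513 TPM, so the 12 h libraries were not below it. OPI3 had 3585 and 4316 TPM in tco89, against 1580.1 and 1587 TPM in wt, and CHO1 had 375 and 397 TPM, against 195 and 179.8 TPM. The tco89 and wt libraries did not overlap for these 3 genes, and ITR1, OPI3 and CHO1 rose by 1.31, 1.31 and 1.04 on the log2 scale. OPI3 missed 2-fold at 0.73 with quantile normalization, and CHO1 missed it at 0.90 with median-ratio scaling and at 0.95 with quantile normalization, and at 0.98 and 1.00 without 1 wt or 1 tco89 library. PSD1 had 67.9 and 77.2 TPM in tco89, against 38.4 and 36.7 TPM in wt, a log2 change of 0.93. For 8 of the 9 genes, all but INO4, tco89 had the highest mean of the 12 strains at 12 h. At 16 h none of the 9 passed in tco89 with limma, although 8 had an adjusted p under 0.05 with changes short of 2-fold. INO1 had 682 and 731 TPM in tco89 at that time, against 404 and 365 TPM in wt.

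In ras2 nearly the whole group was low at 16 h. INO1 had 55.5 and 53.6 TPM in ras2, against 404 and 365 TPM in wt (6.93-fold lower, adjusted p = 3.41e-20). ITR1 had 67.1 and 72.1 TPM in ras2, against 215 and 215 TPM in wt, a log2 change of -1.62. OPI3 had 609.7 and 546 TPM in ras2, against 1831 and 1679 TPM in wt, a log2 change of -1.6. In all of these the ras2 libraries lay far below the wild-type ones. The fall extended to the regulators. OPI1 had 25.4 and 33.4 TPM in ras2, against 100.2 and 109 TPM in wt, INO4 had 59.2 and 65.0 TPM, against 197 and 212 TPM, and INO2 had 18.8 and 22.1 TPM, against 59.8 and 52.5 TPM. Their log2 changes were -1.81, -1.70 and -1.41. CHO2 had 15.3 and 15.4 TPM in ras2, against 36.7 and 34.4 TPM in wt, a log2 change of -1.16 that became -0.99 with a pseudocount of 5. In all, 7 of the 9 fell in ras2 at 16 h, against 7.75% of all genes, with a median log2 change of -1.6 over the 9 and -0.03 over all genes. The exceptions were PSD1, at 22.2 and 21.0 TPM in ras2 against 43.7 and 43.3 TPM in wt (log2 -0.98), and CHO1, at 103 and 99.4 TPM against 166 and 154 TPM (log2 -0.66). All 9 had their lowest mean of the 12 strains in ras2 at 16 h. Within ras2, 6 of the 9 fell between 0 and 16 h, against 18.6% of all genes, and INO1 was 2.77-fold its 0 h level at 12 h, with 227 and 244 TPM, before the low values at 16 h.

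At 12 h in ras2 the structural genes did not pass and 2 of the 9 fell, against 11.9% of all genes, which is near the background. INO4 had 70.0 and 74.1 TPM in ras2, against 171 and 162 TPM in wt, and OPI1 had 34.4 and 32.9 TPM, against 70.8 and 79.4 TPM. Their log2 changes of -1.20 and -1.13 missed 2-fold with median-ratio scaling, at -1.0 and -0.94, and with quantile normalization, at -0.94 and -0.87.

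INO4 and OPI1 were also low in rts1 at 12 h, while INO2, lower as well at -0.52 on the log2 scale, did not pass. At 12 h OPI1 had 18.2 and 32.8 TPM in rts1, against 70.8 and 79.4 TPM in wt, and INO4 had 68.5 and 75.5 TPM, against 171 and 162 TPM. These were the 2 of 9 that fell, against 14.2% of all genes, which is near the background. OPI1 fell by 1.57 on the log2 scale, and by 1.17 without the lower rts1 library. INO4 fell by 1.20, and missed 2-fold at -0.84 and -0.80 under the 2 other scalings. At 16 h in rts1, OPI1, OPI3 and INO2 were the 3 of 9 that fell, against 4.53% of all genes. OPI3 had 720.1 and 750.2 TPM in rts1, against 1831 and 1679 TPM in wt (log2 -1.25 ± 0.10 SE, adjusted p = 5.55e-14). OPI1 had 39.7 and 34.5 TPM, against 100.2 and 109 TPM in wt, a log2 change of -1.47. INO2 had 26.3 and 26.0 TPM, against 59.8 and 52.5 TPM, and its change of -1.07 became -0.98 without 1 wt library. The 16 h library groups of rts1 and wt did not overlap for any of these 3 genes.

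**Figure D2:**
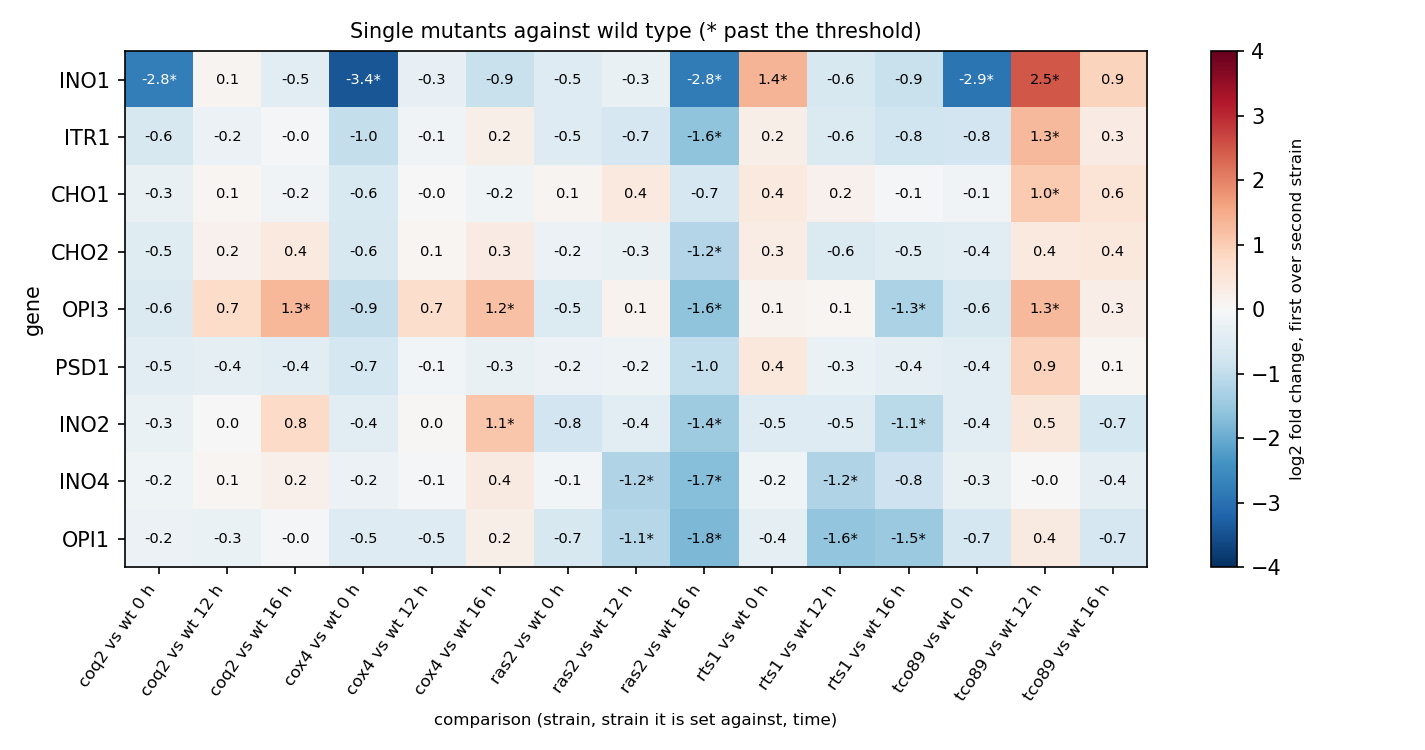
Log2 fold change of each of the 9 genes (vertical axis) in each single deletion over wt at 0, 12 and 16 h (horizontal axis), on the log2(TPM + 1) scale, with an asterisk where the change passed the threshold. INO1 is the darkest blue, at 0 h in coq2, cox4 and tco89 and at 16 h in ras2. The tco89 column at 12 h is red for 4 marked genes, and the ras2 column at 16 h is blue for 7 marked genes.

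Log-phase INO1 was higher in 5 of the 6 double mutants than in the coq2 or cox4 single mutant. INO1 had 534 and 548 TPM in cox4 ras2, 61.4 and 66.6 TPM in cox4 rts1 and 49.3 and 47.6 TPM in cox4 tco89, against 10.8 and 10.3 TPM in cox4. It had 191 and 201 TPM in coq2 tco89, 70.4 and 82.2 TPM in coq2 rts1 and 13.7 and 16.5 TPM in coq2 ras2, against 17.2 and 17.2 TPM in coq2. Every library of the first 5 lay above those of the single mutant, and both coq2 ras2 libraries lay below the coq2 ones. The rises were 46.9-fold in cox4 ras2 (log2 5.55 ± 0.14 SE, adjusted p = 1.47e-31), 10.8-fold in coq2 tco89 (adjusted p = 4.39e-22) and 5.63-fold in cox4 rts1 (adjusted p = 3.41e-18). INO1 rose 4.28-fold in cox4 tco89 and 4.24-fold in coq2 rts1. The rise in coq2 tco89 was the largest of all 5766 genes. In coq2 ras2 the log2 change was -0.18, and none of the 9 passed with limma. There 4 of the 9 had an adjusted p under 0.05 without a 2-fold change.

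The 2 ras2 double mutants stood at opposite ends of the log-phase order, and the difference between them was tested by interaction terms, which share the coq2, cox4 and wt libraries. The effect of a deletion means here the difference between strains with and without it, in which strain and culture cannot be told apart. The effect of deleting RAS2 on INO1 was larger in cox4 than in coq2 cells by 5.74 on the log2 scale (adjusted p = 2.21e-25) and larger in cox4 than in wt cells by 6.08 (adjusted p = 1.66e-26). In each of these 2 terms 6 of the 9 passed, namely INO1, OPI3, ITR1, OPI1, CHO1 and PSD1, against 1.72% of all genes for cox4 over coq2 and 1.93% for cox4 over wt. The OPI3 terms were 2.09 and 2.11. CHO1, at 1.13 and 1.05, missed 2-fold with quantile normalization, at 0.91 and 0.85.

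At 0 h INO1 was lower in tco89 than in wt, and higher in coq2 tco89 and cox4 tco89 than in coq2 and cox4. The TCO89 effect exceeded that in wt by 6.36 in coq2 (adjusted p = 3.52e-27) and by 5.03 in cox4 (adjusted p = 6.03e-23). It was smaller in cox4 than in coq2 by a log2 difference of -1.34 (adjusted p = 1.85e-05). Terms for 6 of the 9 passed in coq2 over wt, against 1.58% of all genes, and for 6 of the 9 in cox4 over wt, against 1.04%. INO1, ITR1, CHO1, OPI3 and PSD1 were among them in each, with OPI1 the other gene in coq2 and CHO2 the other gene in cox4. In cox4 over coq2, INO1 was the 1 of 9, against 0.312% of all genes. For RTS1 the INO1 effect in cox4 was 1.12 above that in wt (adjusted p = 0.000405), the 1 of 9 that passed, against 0.555%. The INO1 terms at 0 h kept their direction and passed with median-ratio scaling, with quantile normalization and without any single library.

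At the later times fewer of these terms passed. At 12 h the TCO89 effect on INO1 was below that in wt by 1.79 in coq2 (log2 difference -1.79, adjusted p = 3.74e-09) and by 1.58 in cox4 (log2 difference -1.58, adjusted p = 4.91e-08). In each, 2 of the 9 passed, against 0.642% of all genes in coq2, with OPI3 the other gene, and 6.4% in cox4, with ITR1 the other gene. The RTS1 effect on INO1 in cox4 was above that in wt by 1.32, the 1 of 9, against 1.61%. The RAS2 effect at 12 h was lower in cox4 than in coq2 for 3 of 9, against 2.39% of all genes, and higher in coq2 than in wt for 2 of 9, against 6.57%. Of those 5 terms only that of INO1, -1.24, still passed with median-ratio scaling, and none passed with quantile normalization. At 16 h the RAS2 effect in cox4 was above that in wt for 5 of 9, against 14% of all genes, with INO1 at 1.88 and OPI1 at 1.62, and above that in coq2 for INO4, the 1 of 9, against 2.81%. The RTS1 effect at 16 h was above that in wt for 3 of 9 in coq2, against 4.58%, and for INO1 alone in cox4, 1 of 9 against 4.98%, where a single library carries the double mutant. The INO1 terms were 1.38 in coq2 and 1.54 in cox4.

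OPI3 also rose in 4 of these double mutants. OPI3 had 3955 and 4152 TPM in cox4 ras2, 2879 and 2999 TPM in cox4 rts1 and 3284 and 3458 TPM in cox4 tco89, against 1337 and 1378 TPM in cox4. In coq2 tco89 OPI3 had 4693 and 4805 TPM, against 1696 and 1833 TPM in coq2. Each of these groups lay wholly above its single mutant, with log2 changes of 1.58, 1.11, 1.31 and 1.43. In coq2 rts1 OPI3 had 2867 and 2839 TPM, and the log2 change of 0.69 did not pass.

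CHO1 rose in both cox4 ras2, with 754 and 729 TPM, and cox4 tco89, with 737 and 726 TPM, against 345 and 322 TPM in cox4. ITR1 rose in cox4 ras2 alone, with 1017 and 1006 TPM, against 434 and 428 TPM in cox4. The log2 changes of 1.15, 1.13 and 1.23 missed 2-fold with quantile normalization, at 0.81, 0.83 and 0.93. In counts, 4 of the 9 rose in cox4 ras2, against 6.04% of all genes, 3 in cox4 tco89, against 0.78%, and 2 in cox4 rts1, against 1.94%. From coq2 the counts were 2 in coq2 tco89, against 0.728%, and 1 in coq2 rts1, against 2.2%. None of the 9 fell in a double mutant at 0 h.

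At 12 h OPI1 and INO4 were low in the double mutants with rts1, while INO2, the other regulator gene, did not pass. By group mean INO2 was also lower, at 24.4 TPM in coq2 rts1 against 35.7 TPM in coq2. In cox4 rts1 its mean was 22.0 TPM, against 35.9 TPM in cox4. OPI1 had 16.6 and 29.7 TPM in coq2 rts1, against 65.4 and 59.7 TPM in coq2, and it had 20.3 and 16.8 TPM in cox4 rts1, against 50.9 and 53.7 TPM in cox4. INO4 had 66.7 and 65.8 TPM in coq2 rts1, against 177 and 173 TPM in coq2, and it had 65.8 and 50.5 TPM in cox4 rts1, against 151 and 170.0 TPM in cox4. The groups did not overlap for either gene, and the log2 changes were -1.45 for OPI1 in both strains, -1.39 for INO4 in coq2 rts1 and -1.46 in cox4 rts1. These were the 2 of 9 that fell in each strain, against 8% of all genes in coq2 rts1 and 12.2% in cox4 rts1. In a set of 9 this count is not far above the background. In cox4 ras2 only INO4 fell, with 47.2 and 51.6 TPM, against 151 and 170.0 TPM in cox4 (log2 -1.68), where 7.32% of all genes fell. INO1 at 12 h ran from 133 TPM to 543 TPM over the libraries of the 6 double mutants and did not pass against coq2 or cox4 in any of them on the values as deposited. It passed in cox4 rts1 with median-ratio scaling, at 1.06, and in cox4 tco89 without 1 library, at 1.03 or 1.06.

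At 16 h the largest count of falls among the double mutants was in coq2 ras2. In that strain 5 of the 9 fell relative to coq2, against 5.71% of all genes. INO1 had 73.3 and 76.1 TPM in coq2 ras2, against 283 and 278 TPM in coq2 (log2 -1.89 ± 0.14 SE, adjusted p = 3.71e-15). OPI3 had 1229 and 1262 TPM, against 4329 and 4578 TPM in coq2, and fell by 1.84 on the log2 scale (adjusted p = 7.11e-20). INO2, INO4 and OPI1 fell by 1.62, 1.63 and 1.17. ITR1 and CHO2 also passed with median-ratio scaling, at -1.26 and -1.27. In cox4 ras2, 2 of the 9 fell relative to cox4, against 7.15% of all genes. They were OPI3, with 1463 and 1479 TPM against 4085 and 3869.5 TPM in cox4, and INO2, with 38.2 and 31.9 TPM against 119 and 128 TPM in cox4. Their log2 changes were -1.43 and -1.79. The other genes of cox4 ras2 were not all low, as CHO1 had 204 and 247 TPM, against 148 and 136 TPM in cox4. INO1 had 92.9 and 130.3 TPM in cox4 ras2, against 209 and 209 TPM in cox4, a log2 change of -0.92. It went past 2-fold with quantile normalization, at -1.21, and without the higher cox4 ras2 library, at -1.16.

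Of the other double mutants at 16 h, coq2 rts1 and coq2 tco89 each had 1 of the 9 lower than coq2, against 3.12% and 3.21% of all genes. In both it was INO2, with 41.5 and 50.6 TPM in coq2 rts1 and 39.5 and 37.1 TPM in coq2 tco89, against 94.1 and 96.7 TPM in coq2. The log2 changes were -1.04 and -1.29, and the first missed 2-fold at -0.90 without the lower coq2 rts1 library. In cox4 rts1, with its lone library, none of the 9 passed, as no change reached 2-fold on the values as deposited. INO2 in cox4 rts1 went past 2-fold with median-ratio scaling, at -1.12, and with quantile normalization, at -1.10. Without 1 cox4 library the INO2 change was -1.03. In cox4 tco89, 2 of the 9 rose relative to cox4, against 3.24% of all genes. INO1 had 495 and 619.6 TPM in cox4 tco89, against 209 and 209 TPM in cox4, and CHO1 had 341 and 381 TPM, against 148 and 136 TPM. The log2 changes of 1.40 and 1.34 were 1.56 and 1.42 without the library that held COX4 at 72.3 TPM. The lower value of each pair belongs to that library.

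**Figure D3:**
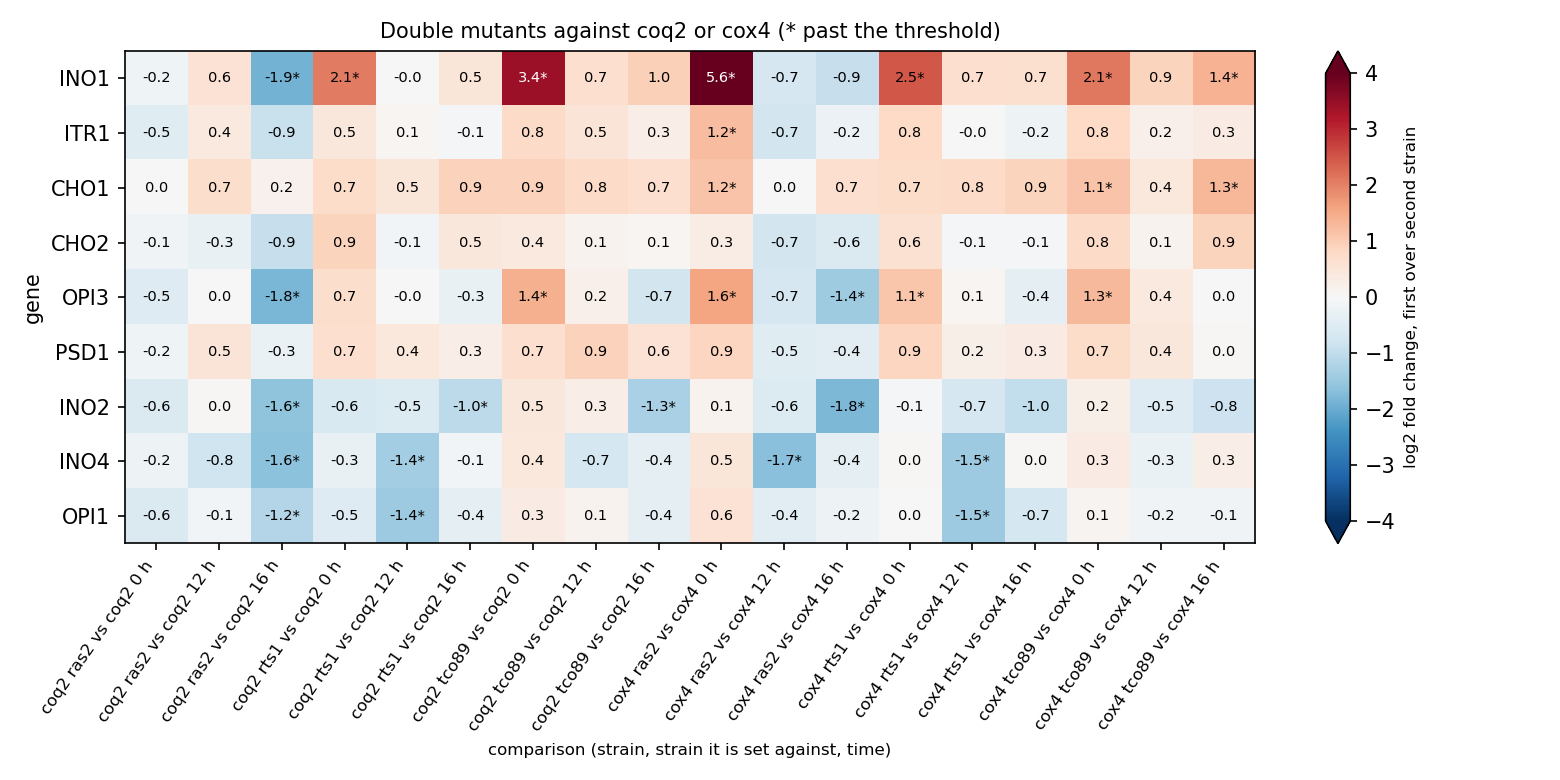
Log2 fold change of each of the 9 genes (vertical axis) in each double mutant over its coq2 or cox4 single mutant at 0, 12 and 16 h (horizontal axis), on the log2(TPM + 1) scale, with an asterisk where the change passed the threshold. INO1 at 0 h is red in 5 of the 6 double mutants, with 5.55 for cox4 ras2 beyond the end of the colour scale, and 5 genes are marked blue in coq2 ras2 at 16 h.

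Set against the suppressor single mutants, log-phase INO1 was lower in some double mutants and higher in others. INO1 had 13.7 and 16.5 TPM in coq2 ras2, against 83.2 and 85.5 TPM in ras2, and it was the 1 of 9 that fell, against 0.0867% of all genes. It had 70.4 and 82.2 TPM in coq2 rts1 and 61.4 and 66.6 TPM in cox4 rts1, against 308 and 326 TPM in rts1, alone of the 9 in each, against 0.121% and 0.139% of all genes. The log2 changes were -2.41, -2.04 and -2.29. INO1 and OPI3 were the 2 of 9 that rose in cox4 ras2 over ras2, against 0.971% of all genes, in coq2 tco89 over tco89, against 1.28%, and in cox4 tco89 over tco89, against 0.798%. The INO1 rises in these strains were 6.35-fold, 12.2-fold and 3.06-fold. OPI3 in cox4 tco89 was at the edge of the threshold, with a log2 change of 1.01 that was 0.97 without 1 cox4 tco89 library.

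At 12 h the high INO1 of tco89 was not kept when COQ2 or COX4 was also absent. INO1 had 465 and 543 TPM in coq2 tco89 and 388 and 485 TPM in cox4 tco89, against 1583 and 1657 TPM in tco89, and fell by 1.69 and 1.90 on the log2 scale (adjusted p = 9.13e-12 and 1.25e-14). ITR1 had 259 and 271 TPM in coq2 tco89 and 212 and 241 TPM in cox4 tco89, against 514 and 559 TPM in tco89. It fell by 1.01 and 1.24, and missed 2-fold at -0.95 without 1 tco89 library in the comparison with coq2 tco89 and at -0.86 with median-ratio scaling in that with cox4 tco89. INO1 and ITR1 were the 2 of 9 that fell in coq2 tco89, against 0.399% of all genes. In cox4 tco89 there were 3 of 9, against 12.9%, the additional gene being OPI1 at -1.02, or -0.64 with median-ratio scaling.

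At 16 h OPI3 had the largest rise of the 9 genes in the rts1 double mutants over rts1. It had 3867 and 3378 TPM in coq2 rts1 and 3075 TPM in the lone cox4 rts1 library, against 720.1 and 750.2 TPM in rts1, rises of 4.91-fold and 4.18-fold (adjusted p = 2.3e-22 and 1.4e-17). In coq2 rts1, 3 of the 9 rose, against 2.86% of all genes, the others being CHO2 at 1.34 and OPI1 at 1.04, which missed 2-fold at 0.94 without 1 rts1 library. In cox4 rts1, 3 of the 9 rose, against 3.69%, with INO2 at 1.21 and INO4 at 1.23. Both counts depend on the scaling. With median-ratio scaling 8 of the 9 passed in coq2 rts1 and 7 in cox4 rts1, and with quantile normalization 7 and 6. In cox4 ras2, 6 of the 9 rose over ras2, against 6.78% of all genes. Among them OPI1 had 111 and 104 TPM in cox4 ras2, against 25.4 and 33.4 TPM in ras2, INO4 had 209 and 186 TPM, against 59.2 and 65.0 TPM, and ITR1 had 207 and 222 TPM, against 67.1 and 72.1 TPM. Their log2 changes were 1.85, 1.65 and 1.61. OPI3 and CHO1 rose by 1.35 and 1.14, and INO1 by 1.00, which fell below 2-fold at 0.76 without 1 cox4 ras2 library.

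**Figure D4:**
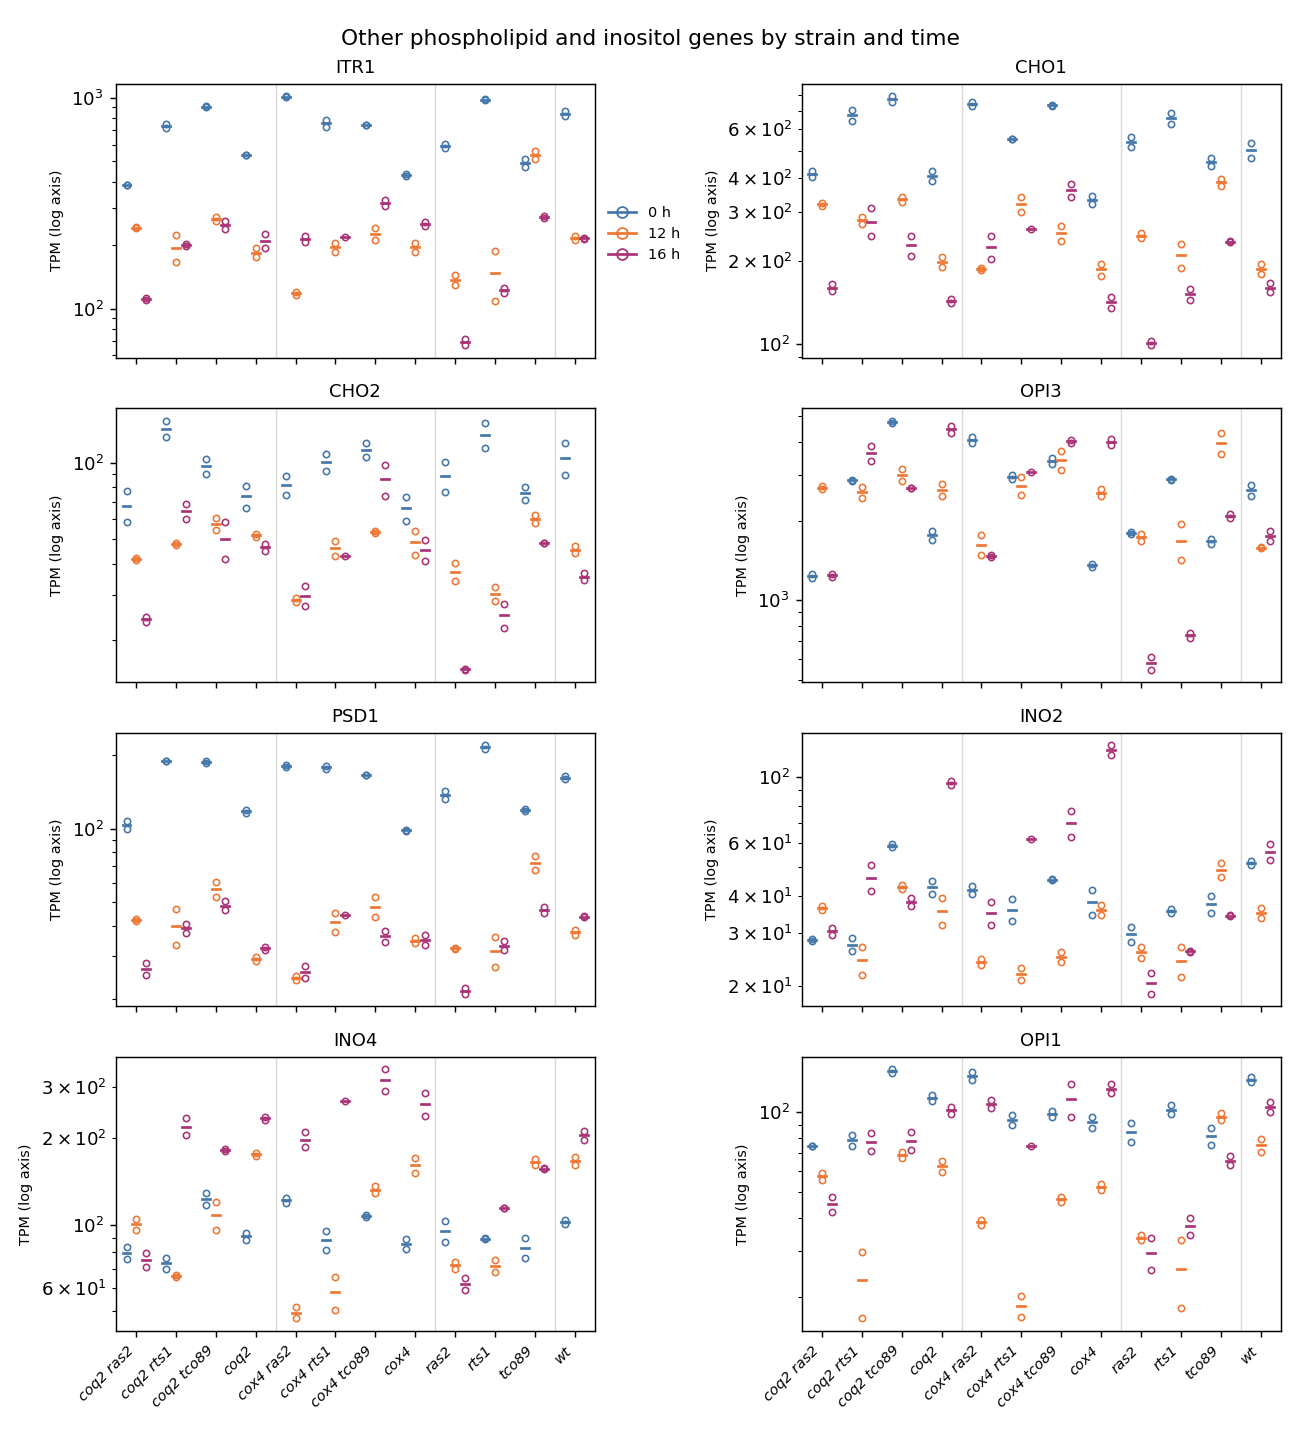
Level in TPM (log axes, each panel on its own range) of the other 8 genes in each strain, with 0, 12 and 16 h in different colours, a circle for each library and a bar for the mean of a group. ITR1, CHO1, CHO2 and PSD1 are highest at 0 h in nearly all strains, OPI3 at 16 h lies between 3869.5 and 4578 TPM in coq2, cox4 and cox4 tco89 and at 546 and 609.7 TPM in ras2, and INO2 at 16 h is highest in cox4.

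The change between 0 and 16 h was then compared with that in wt by interaction terms, which share the wt libraries. INO1 changed by more than in wt in coq2, cox4, tco89 and cox4 tco89, and by less, or downward, in ras2, rts1 and cox4 ras2. In cox4 ras2 INO1 had 92.9 and 130.3 TPM at 16 h, against 534 and 548 TPM at 0 h, and it was the 1 of 9 whose change lay below that of wt past the threshold, against 12.7% of all genes. OPI3 and PSD1 also lay below, each at -0.89, and OPI3 passed with quantile normalization, at -1.50. In coq2 the terms passed with a positive sign for 3 of 9 (INO1, OPI3 and INO2), against 1.91% of all genes, and in cox4 for 4 of 9 (those and ITR1), against 2.77%. The INO2 term in coq2, 1.02, missed 2-fold at 0.96 with a pseudocount of 5, and at 0.92 to 1.0 without library 1 of wt or coq2 at 0 h or library 2 of either at 16 h. The cox4 count was 6 with median-ratio scaling and 7 with quantile normalization. In tco89 INO1 and ITR1 were the 2 of 9, against 5.62%, and in cox4 tco89 INO1 and CHO2 were the 2 of 9, against 2.55%. ITR1 in tco89 missed 2-fold with median-ratio scaling and quantile normalization, at 0.99 and 0.94, and CHO2 in cox4 tco89 missed it without wt library 1 at 0 h, at 0.91, or cox4 tco89 library 2 at 16 h, at 0.92. The cox4 tco89 count was 8 with median-ratio scaling. Negative terms passed for 5 of 9 in ras2 (INO1, ITR1, OPI3, INO4 and OPI1), against 9.57% of all genes, for 4 of 9 in rts1 (INO1, ITR1, OPI3 and OPI1), against 4.44%, and for INO4, 1 of 9, in coq2 ras2, against 11.4%. The counts of 1 of 9 in coq2 ras2 and in cox4 ras2 are near the background. With quantile normalization INO4 in coq2 ras2 missed 2-fold at -0.86 and ITR1 missed it in ras2 at -0.99 and in rts1 at -0.94. OPI1 in ras2 missed it without ras2 library 1 at 16 h, at -0.96. INO4 in coq2 ras2 and ITR1 in rts1 missed it without library 2 of their own strain at 16 h, ITR1 also without wt library 2 at 0 h, and OPI3 in ras2 without ras2 library 2 at 16 h or wt library 1 at 0 h, at -0.99 to -1.0. The rts1 count was 6 with median-ratio scaling.

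PSD1 at 0 h ran from 98.5 TPM in cox4 to 216 TPM in rts1 by group mean, and at 12 h from 24.3 TPM in cox4 ras2 to 72.5 TPM in tco89. In no strain did its 12 or 16 h libraries reach its 0 h libraries. On the values as deposited PSD1 did not pass in any comparison of a single deletion with wt or of a double mutant with coq2 or cox4. It stood at the edge in 4 of them and passed under an alternative, in ras2 at 16 h (-1.01 with a pseudocount of 0.1), in cox4 rts1 at 0 h (1.03 with median-ratio scaling), and, without 1 library, in tco89 (1.02) and coq2 tco89 (1.02) at 12 h. CHO2 had its lowest group mean at 15.4 TPM in ras2 at 16 h and its highest at 136 TPM in coq2 rts1 at 0 h.

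Across the 36 group means, a description in which points share strains and times, the log2 levels of ITR1, CHO1, CHO2 and PSD1 ran together, with r = 0.951 for ITR1 and PSD1, 0.92 for ITR1 and CHO2 and 0.912 for CHO1 and PSD1. INO1 stood apart from them, at r = -0.172 with ITR1, -0.181 with CHO1 and -0.333 with PSD1, and was closest to OPI3 at 0.498. The regulators INO2 and INO4 had r = 0.752 and INO2 and OPI1 had r = 0.729. Among 4799 genes with a mean of at least 10 TPM, the profile most like INO1 was that of YOL153C at r = 0.806, followed by PBI2 at 0.8, MRP8 at 0.799, YBR056W-A at 0.798 and SRL3 at 0.797. For PSD1 it was SAM2, an S-adenosylmethionine synthetase gene, at 0.97, for ITR1 it was PSD1, for CHO2 it was ITR1, and for CHO1 it was FAS1, a fatty acid synthase subunit gene, at 0.93. The nearest genes were YEL073C for OPI3 at 0.776, LGE1 for INO2 at 0.82, CRP1 for INO4 at 0.948 and MET12 for OPI1 at 0.902.

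Another 33 genes of the pathway, in 5 lists, were read alongside. In wt at 16 h against 0 h, 3 rose, against 17.7% of all genes, and 10 fell, against 28.9%, which is below the background for rises and near it for falls, with a median log2 change of -0.50 against -0.24 over all genes. Of 7 genes of the choline and ethanolamine branch, 4 fell, among them EPT1 and CPT1, the ethanolamine and choline phosphotransferase genes, by 2.86 and 2.13, HNM1, the choline transporter gene, by 2.46, and EKI1, the ethanolamine kinase gene, by 1.61. Of 4 genes of the inositol branch, INM1, an inositol monophosphatase gene, fell by 1.99, ITR2, the minor inositol transporter gene, fell by 1.1 and missed 2-fold with either other scaling (-0.81 and -0.86), and INM2 rose by 1.09, or 0.98 without 1 wt library at 0 h. Of 12 genes of phosphatidic acid and CDP-diacylglycerol, CDS1, the CDP-diacylglycerol synthase gene, SLC1 and DPP1 fell by 2.51, 1.90 and 1.58, and PAH1, the phosphatidate phosphatase gene, and GPT2 rose by 1.76 and 1.04. None of the 4 genes of the second decarboxylase and cardiolipin passed, and of 6 other regulators of INO1 only SCS2 fell, by 1.17, or by 0.87 with median-ratio scaling.

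The low log-phase INO1 of the respiratory mutants had no counterpart past the threshold among these 33. None of them passed in coq2 or cox4 at 0 h with limma, and 5 and 12 had an unadjusted p under 0.05. In cox4 3 of the 33 had an adjusted p under 0.05, and in coq2 none. The medians over the 33 were -0.04 and -0.13 on the log2 scale. Those of the choline and ethanolamine branch were -0.26 and -0.34, against -0.04 and -0.06 over all genes. Those of the inositol branch were 0.11 and 0.08, and the remaining lists had medians between -0.15 and -0.02. At 16 h GEP4, the phosphatidylglycerophosphate phosphatase gene, had 33.1 and 35.4 TPM in coq2 and 39.7 and 31.7 TPM in cox4, against a wt mean of 75.0 TPM, and its changes of -1.11 and -1.06 missed 2-fold with median-ratio scaling (-0.70 and -0.76). GPT2, a glycerol-3-phosphate acyltransferase gene, also fell in coq2 at 16 h, with 21.5 and 19.8 TPM against 45.1 and 44.9 TPM in wt (log2 -1.09, or -0.68 with median-ratio scaling). PAH1 rose in cox4 at 16 h, with 98.7 and 104 TPM against a wt mean of 45.7 TPM (log2 1.13). At 16 h the falls were 2 of the 33 in coq2, against 12.3% of all genes, and 1 in cox4, against 9.52%. Both are below the background. The rise in cox4 was 1 of the 33, against 1.99%. In tco89 at 12 h, 5 of the 33 rose, EPT1 by 1.43, CPT1 by 1.29, DPP1 by 1.22, CDS1 by 1.21 and INM1 by 1.18, against 7.08% of all genes. PAH1 fell by 1.55, the 1 of the 33, against 4.89%. The median was 0.35 over the 33 and 0.18 over all genes. In ras2 at 16 h, PAH1, CKI1 and HAC1 fell by 2.19, 1.88 and 1.03, and INM1 and DPP1 rose by 1.42 and 1.16, 3 and 2 of the 33 against 7.75% and 7.37% of all genes, which is near the background. PAH1 had 8.80 and 9.70 TPM in ras2 at that time, against a wt mean of 45.7 TPM. The median over the 33 genes in ras2 was -0.06, close to the -0.03 over all genes and unlike the -1.6 over the 9.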

How the data were processed

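RNA levels in 71 yeast libraries were taken from the deposited table of TPM values. The authors made these TPM values before deposit, with sacCer3, bcl2fastq 2.20.0.422 and Salmon 0.9.1 listed per the submitters' processing notes, which do not give the role of each. Column sums run between 1000003 and 1000010, no value lies below 0.1 TPM, and the depth is unknown, so no count test or counting interval was possible. A second deposited table was an identical copy and was not used.

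Values were tested as log2(TPM + 1) with limma 3.58.1 in R 4.3.3. Genes at 1 TPM or more in at least 2 libraries were kept (5766, with 37 removed), each group had its own mean (35 residual degrees of freedom), and Benjamini-Hochberg adjustment ran over all genes within each comparison. Calls needed both a 2-fold change or more and an adjusted p under 0.05. Fold changes on this scale understate those of low genes. Scripts were tested on simulated data.

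The 9 genes and the pathway lists were chosen with earlier results of these data known. The genes named are the 9, the 5 deleted genes, members of the fixed pathway lists past the threshold, with up to 4 of the largest per list, and, by correlation of group means, the 5 genes most like INO1 and the 1 most like each other gene. The pathway genes named in tco89 at 12 h and ras2 at 16 h, the comparisons of double mutants with suppressor single mutants, the changes within mutant strains and the differences between suppressor effects were added after the data were seen. Upstream sequences were read from the R64 reference with Python 3.11.15. Near copies of the genes were searched with blastn 2.17.0 in its default mode, which found none. The search was not set to find more distant relatives.

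Alternatives were pseudocounts of 0.1 and 5, no filter, median-ratio scaling, quantile normalization, no intensity trend, only the groups compared, leaving out each library in turn and, added after the data were seen, a term for column position.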

Additional observations from a re-analysis of the deposited data

Results flagged for a closer look

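The values here are log2 differences from interaction terms that passed an adjusted p under 0.05 in limma and 2-fold. They are listed because an effect differed between strains. Terms that share a strain share its libraries.

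The change between 0 and 16 h differed from that in wt for these genes. In coq2 the difference was 2.3 for INO1, 1.91 for OPI3 and 1.02 for INO2. In cox4 it was 2.53 for INO1, 2.12 for OPI3, 1.54 for INO2 and 1.19 for ITR1. In ras2 it was -2.27 for INO1, -1.6 for INO4, -1.15 for OPI1, -1.11 for ITR1 and -1.07 for OPI3. In rts1 it was -2.26 for INO1, -1.39 for OPI3, -1.1 for OPI1 and -1.03 for ITR1. In tco89 it was 3.8 for INO1 and 1.11 for ITR1. Among the double mutants it was -1.08 for INO4 in coq2 ras2 and -3.94 for INO1 in cox4 ras2. In cox4 tco89 it was 1.84 for INO1 and 1.12 for CHO2. Without the library that held COX4 at 72.3 TPM those 2 values were 2.00 and 1.32, and without the other library CHO2 no longer passed, at 0.92.

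The effect of deleting a suppressor gene differed between backgrounds at 0 h. For RAS2 in cox4 over coq2 the difference was 5.74 for INO1, 2.09 for OPI3, 1.7 for ITR1, 1.17 for OPI1, 1.13 for CHO1 and 1.05 for PSD1. For RAS2 in cox4 over wt it was 6.08 for INO1, 2.11 for OPI3, 1.73 for ITR1, 1.23 for OPI1, 1.1 for PSD1 and 1.05 for CHO1. For RTS1 in cox4 over wt it was 1.12 for INO1. For TCO89 in cox4 over coq2 it was -1.34 for INO1. For TCO89 in coq2 over wt it was 6.36 for INO1, 2.07 for OPI3, 1.54 for ITR1, 1.1 for PSD1, 1.06 for CHO1 and 1.04 for OPI1. For TCO89 in cox4 over wt it was 5.03 for INO1, 1.95 for OPI3, 1.56 for ITR1, 1.27 for CHO1, 1.2 for CHO2 and 1.18 for PSD1.

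The same effects differed at the later times in fewer genes. At 12 h the RAS2 effect in cox4 over coq2 was -1.24 for INO1, -1.12 for ITR1 and -1.02 for PSD1, and that in coq2 over wt was 1.05 for ITR1 and 1.01 for OPI1. At 12 h the RTS1 effect in cox4 over wt was 1.32 for INO1. The TCO89 effect at 12 h was -1.79 for INO1 and -1.12 for OPI3 in coq2 over wt, and it was -1.58 for INO1 and -1.1 for ITR1 in cox4 over wt. At 16 h the RAS2 effect in cox4 was 1.22 for INO4 over coq2. Over wt it was 1.88 for INO1, 1.62 for OPI1, 1.38 for ITR1, 1.32 for CHO1 and 1.3 for INO4. The RTS1 effect at 16 h over wt was 1.38 for INO1, 1.08 for OPI1 and 1.01 for CHO1 in coq2, and it was 1.54 for INO1 in cox4, with 1 library of the double mutant. Of these 46 differences between suppressor effects, 18 no longer passed under another setting, 7 with median-ratio scaling, 14 with quantile normalization and 11 without 1 library. The weakest to the loss of 1 library were CHO1 for RTS1 in coq2 over wt at 16 h and OPI1 for RAS2 in coq2 over wt at 12 h, which passed in 4 of 8 such fits each, and PSD1 for RAS2 in cox4 over coq2 at 12 h, which passed in 5 of 8.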

How the results depend on the processing

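Over 576 gene-by-comparison values for the 9 genes, 113 were called, and no value reversed under any alternative tried. Dropping the filter, the intensity trend or the groups not compared changed no call. A pseudocount of 0.1 added 5 calls and one of 5 lost 8. Median-ratio scaling lost 8 calls and added 41, and quantile normalization lost 15 and added 30. Leaving out 1 library lost 16 of the calls at least once and added 28 values at least once. With the values as deposited, median-ratio scaling and quantile normalization in turn, higher and lower calls were 20 and 8, 36 and 6, and 30 and 7 for double mutants against suppressor single mutants, and 14 and 14, 19 and 19, and 12 and 20 for double mutants against coq2 or cox4. For single suppressor mutants against wt they were 5 and 15, 4 and 12, and 3 and 13, and for coq2 and cox4 against wt 3 and 2, 5 and 2, and 4 and 2. In wt they were 1 and 4, 1 and 3, and 1 and 4 at 12 h, and 1 and 4, 2 and 4, and 2 and 4 at 16 h. For differences of the time course from wt they were 11 and 11, 19 and 14, and 15 and 11. Median-ratio scaling moves all genes together, by a log2 shift of -0.271 at 12 h and -0.301 at 16 h in wt and of -0.423 in coq2 over wt at 16 h. Without 1 library, the calls ranged from 4 to 5 in wt at 12 h, 5 to 6 in wt at 16 h, 5 to 6 for coq2 and cox4, 19 to 21 for suppressor single mutants, 27 to 30 for double mutants against coq2 or cox4, 27 to 29 against suppressor single mutants and 21 to 24 for the time course. No paired analysis was possible because the columns carry no replicate number. A term for column position within each time, chosen after seeing the data, lost 0 of 247 calls over 909 values and added 1. Leaving out the lone cox4 rts1 library at 16 h gives no value. Depth limits cannot be stated, since the table holds no counts.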
